A study of Saccharomyces cerevisiae with 136 samples.

Results

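A set of 9 genes for heat shock proteins and their partners was followed through replicative aging in single cells of budding yeast: the small heat shock proteins *HSP12* (YFL014W), *HSP26* (YBR072W) and *HSP42* (YDR171W), the stress protein *HSP31* (YDR533C), the Hsp90 genes *HSP82* (YPL240C) and *HSC82* (YMR186W), and the Hsp90 co-chaperones *STI1* (YOR027W), *AHA1* (YDR214W) and *CPR6* (YLR216C). They were chosen by name as 9 of the 5997 genes listed in the deposited expression table. Mother cells were wild type, of strain BY4742 according to the strain label (the sample titles say BY4741), and grew on SD agar plates while their daughters were removed by microdissection. Mothers aged 2, 16 or 36 h were picked by hand and each was turned into its own Smart-seq2 library, a full-length method primed on poly(A) tails. Of 136 cells listed, 125 had values, 37 in the 2-h, 43 in the 16-h and 45 in the 36-h age group. The study further split the older groups at their mean number of generations into slow-dividing (S) and fast-dividing (F) subgroups, with 17 cells in 16-h/S, 26 in 16-h/F, 18 in 36-h/S and 27 in 36-h/F. This split comes from the study's sample table and not from the repository's labels, so it is used as a description.

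Small heat shock proteins bind unfolding proteins without using ATP and keep them in a form that other chaperones can refold. Hsp42 and Hsp26 carry the α-crystallin domain and gather misfolded proteins into deposits, whereas Hsp12 is an unrelated small protein that folds on membranes and is counted among the group for its size and its strong stress induction. Hsp31 belongs to the DJ-1 family and detoxifies methylglyoxal. Hsp90 is an ATP-driven chaperone that matures kinases, receptors and other clients, and in yeast it is made from *HSC82*, which is expressed abundantly at all times, and from *HSP82*, which is strongly induced by heat. Sti1 passes clients from Hsp70 to Hsp90, Aha1 speeds up the ATPase of Hsp90, and Cpr6 is a peptidyl-prolyl isomerase that binds the Hsp90 tail. A pair of regulatory routes drives most of these genes: Hsf1, which binds heat shock elements built from alternating GAA and TTC units, and Msn2 and Msn4, which bind the stress response element AGGGG.

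To show how the promoters of the inducible and constitutive members differ in these letters, the 250 bases from 300 to 51 bases before the coding start were read from the RefSeq R64 genome, with 8-letter heat shock elements (GAANNTTC or TTCNNGAA) and stress response elements (AGGGG, or CCCCT on the other strand) in capitals, and some capitals joined where elements overlap. The first pair shows the 2 Hsp90 genes, the next the small heat shock proteins with stress response elements, and the last the co-chaperone with the most heat shock elements. The window of *HSP82* lies at chrXVI:98676-98925 on the minus strand, *HSC82* at chrXIII:632055-632304, *HSP12* at chrVI:106956-107205, *HSP42* at chrIV:806321-806570 and *STI1* at chrXV:380753-381002, the last 4 on the plus strand.
HSP82: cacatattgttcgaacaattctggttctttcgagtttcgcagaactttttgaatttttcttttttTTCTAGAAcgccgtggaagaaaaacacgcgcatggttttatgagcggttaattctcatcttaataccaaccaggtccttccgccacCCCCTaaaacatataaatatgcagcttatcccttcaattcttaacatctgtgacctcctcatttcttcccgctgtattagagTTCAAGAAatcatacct
HSC82: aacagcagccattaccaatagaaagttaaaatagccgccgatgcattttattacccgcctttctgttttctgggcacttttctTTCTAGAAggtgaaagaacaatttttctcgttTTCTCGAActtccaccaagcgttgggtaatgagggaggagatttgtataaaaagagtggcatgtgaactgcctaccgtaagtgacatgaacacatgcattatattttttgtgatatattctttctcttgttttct
HSP12: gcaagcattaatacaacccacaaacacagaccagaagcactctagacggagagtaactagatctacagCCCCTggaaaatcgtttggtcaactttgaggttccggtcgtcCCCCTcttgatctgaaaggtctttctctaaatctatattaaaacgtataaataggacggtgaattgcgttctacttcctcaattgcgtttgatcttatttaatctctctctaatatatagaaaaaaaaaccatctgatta
HSP42: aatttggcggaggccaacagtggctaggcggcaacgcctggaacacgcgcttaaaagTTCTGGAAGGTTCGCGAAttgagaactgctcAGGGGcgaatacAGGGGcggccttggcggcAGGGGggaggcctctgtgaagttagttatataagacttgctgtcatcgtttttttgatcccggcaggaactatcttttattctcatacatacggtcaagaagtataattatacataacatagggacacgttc
STI1: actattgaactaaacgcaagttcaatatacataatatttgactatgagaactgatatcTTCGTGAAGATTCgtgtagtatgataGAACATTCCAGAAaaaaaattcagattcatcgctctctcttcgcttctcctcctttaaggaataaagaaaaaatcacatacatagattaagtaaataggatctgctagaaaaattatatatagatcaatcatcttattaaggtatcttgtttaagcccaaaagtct

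The *HSP82* window held 2 TTCNNGAA elements, beginning 235 and 67 bases before the coding start, and 1 stress response element at 149 bases, whereas the *HSC82* window held 2 TTCNNGAA elements at 217 and 185 bases and no AGGGG. In *HSP42*, 3 overlapping elements at 243, 238 and 233 bases stood just upstream of 3 stress response elements at 212, 200 and 182 bases. *STI1* held 4 elements at 242, 237, 216 and 211 bases, which form separate runs of alternating units, and *HSP12* held stress response elements at 232 and 190 bases. Of 6001 windows of the same length before coding starts in the genome, 10.3% held GAANNTTC, 11.3% held TTCNNGAA, 19.2% held at least 1 AGGGG on either strand, 0.50% held at least 3 AGGGG and 0.85% held 3 alternating heat shock units in a row. *HSP31* had an 8-letter heat shock element at 204 bases and a stress response element at 222 bases. *AHA1* had heat shock elements at 296 and 105 bases and *CPR6* at 138 and 109 bases, both without AGGGG, and *HSP26* had neither motif in this window. These matches describe letters only.

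The values are log2(normalized count + 1), in which the reads on a gene are divided by the size factor of the cell, and 0 means no reads. Since every library is a single cell and no separate cultures are labelled, an age group is 1 sample: no p-value is given, SDs are spreads among cells, and intervals on shares of cells are exact Clopper-Pearson 95% intervals that cover counting error only. Where 0 cells had reads, the share given as still allowed is not such an interval but 3 cells of the group's total. A difference is called past the threshold when the means of 2 groups differ by more than 1 on the log2 scale, and it is set beside the share of the 3899 genes with a mean level of at least 1 that passed the same threshold. All 9 members were among these genes.

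Reads per cell ran from 40883 to 833501, with medians of 270573, 262919 and 252159 in 2-h, 16-h and 36-h cells, and a median of 2055, 2324 and 2309 genes was detected. Depth differed more between subgroups: the median cell had 186022 reads and 1830 genes in 36-h/S, against 325464 reads and 2486 genes in 36-h/F, and 199571 reads and 2105 genes in 16-h/S, against 277170 and 2356 in 16-h/F. No 2 cells were identical, and the highest correlation between any pair was 0.56. For the labelled strain of mating type α, *STE3* had reads in 21, 22 and 7 cells at 2, 16 and 36 h. *STE2*, the receptor of the other mating type, had reads in 1, 0 and 0 cells. *LYS2*, deleted in BY4742, had reads in 3, 2 and 0 cells. Of 6 strain genes listed, *MET17*, which is present in BY4742, and *MFA1* had no values, so neither could be checked against the label. The 7 genes that daughter cells express after division (*DSE1*, *DSE2*, *DSE4*, *EGT2*, *CTS1*, *SCW11*, *AMN1*) summed to 0 in 21 of 37, 11 of 43 and 12 of 45 cells at 2, 16 and 36 h, with a median sum of 0, 45.3 and 16.4 normalized counts and highest sums of 620, 2584 and 10816. All 7 were higher by more than 1 at 16 h against 2 h and 3 at 36 h against 2 h, beside 12.2% and 25.5% of the 3899 genes. The filter on mean level was not applied to these 7, and their part in the differences below was not tested. A single library stood apart for these genes: a 36-h/S cell with 71740 reads and 1146 genes detected had no *HSC82* reads, and the *HSC82* and Hsp90 values that rest on it are given with and without it.

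Every member but the constitutive *HSC82* was higher in 36-h cells than in 2-h cells by more than the threshold. Between 36 h and 2 h, 8 of the 9 members were higher by more than 1 and 0 were lower, where 25.5% of all genes were higher and 14.9% lower by that much. The median difference was 3.60 over the members and 0.31 over all genes, and the members ran from -0.36 for *HSC82* to 5.42 for *HSP42*. Between 16 h and 2 h, 4 members (*HSP12*, *HSP42*, *HSP31* and *HSP82*) were higher by more than 1 and 0 lower, beside 12.2% and 6.62% of all genes, with medians of 0.94 for the members and 0.14 for all genes. Between 36 h and 16 h, 7 members were higher and 0 lower, beside 15.4% and 9.75%, with medians of 2.08 and 0.11. The split over all genes depended on the scaling: it was 995 higher and 581 lower for 36 h against 2 h, 475 and 258 for 16 h against 2 h, and 601 and 380 for 36 h against 16 h as deposited, and 1398 and 415, 529 and 490, and 1317 and 181 with ratios of mean normalized counts. For 36 h against 16 h, more genes were lower than higher after scaling each cell to the same sum (429 higher and 587 lower) or thinning (457 and 558). These 3 comparisons share their cells pairwise and are not independent of each other.

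**Figure D1:**
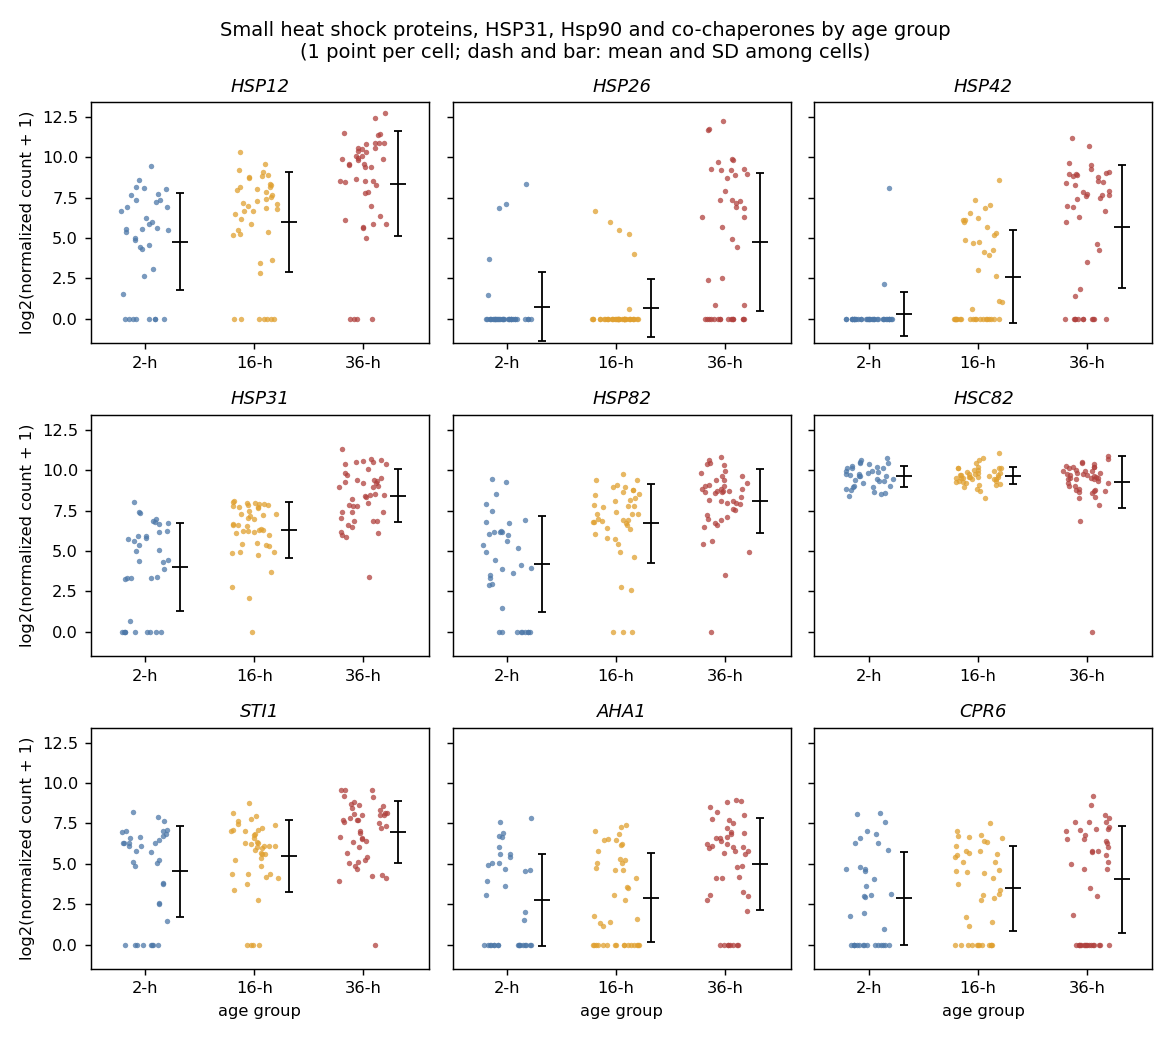
Levels of the 9 genes as log2(normalized count + 1) on the y axis in single cells of the 2-h, 16-h and 36-h age groups on the x axis; each point is 1 cell and the dash with its bar is the mean and SD among cells. *HSC82* lies between 8.28 and 11.05 in 2-h and 16-h cells and between 6.85 and 10.86 in 36-h cells apart from 1 cell at 0, whereas *HSP26* and *HSP42* have most 2-h cells at 0 and cells up to 12.23 and 11.17 at 36 h.

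*HSP42*, the small heat shock protein that sorts misfolded proteins into deposits, showed the largest difference of the members between 36 h and 2 h as deposited; with a pseudocount of 10, *HSP31* was larger (3.35 and 3.21). Reads were present in 2 of 37 2-h cells (5.41%, interval 0.661 to 18.2), 23 of 43 16-h cells (53.5%, 37.7 to 68.8) and 34 of 45 36-h cells (75.6%, 60.5 to 87.1). Its level had a lowest value, median and highest value of 0, 0 and 8.07 at 2 h, 0, 1.06 and 8.57 at 16 h, and 0, 7.50 and 11.17 at 36 h. The ranges overlapped, with cells without reads at each age, but 16 of the 45 36-h cells lay above the highest 2-h cell and 1 of the 37 2-h cells lay above the 36-h median. The mean was 5.70 ± 3.80 in 36-h cells and 0.28 ± 1.36 in 2-h cells (SD, n = 45 and 37 cells), a difference of 5.42 that ranked 23 of 3899 genes, and the ratio of mean normalized counts was 39.7. The 16-h cells lay between, 2.33 above 2-h cells and 3.09 below 36-h cells.

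*HSP26*, the other α-crystallin protein, was nearly undetected until 36 h. Reads were found in 5 of 37 2-h cells (13.5%, interval 4.54 to 28.8), 6 of 43 16-h cells (13.95%, 5.30 to 27.9) and 29 of 45 36-h cells (64.4%, 48.8 to 78.1). Its median was 0 in both younger groups and 5.69 at 36 h, with highest cells at 8.38, 6.70 and 12.23. In contrast to *HSP42*, *HSP26* did not differ by more than 1 between 16 h and 2 h (0.65 and 0.74, a difference of -0.09), and its 36-h mean of 4.75 ± 4.30 was 4.10 above the 16-h mean and 4.01 above the 2-h mean. The 16 cells without reads and 20 cells above the highest 16-h cell made the 36-h group the most spread of the 27 combinations of gene and age. When mean normalized counts were compared instead, *HSP26* was lower at 16 h than at 2 h, with means of 6.15 and 16.2 and a log2 ratio of -1.27.

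*HSP12*, the membrane-binding stress protein, was already present in most young cells. It had reads in 29, 36 and 41 cells at 2, 16 and 36 h (78.4%, 83.7% and 91.1%), and its median was 5.53, 6.99 and 9.54, with highest cells at 9.46, 10.32 and 12.72. At 36 h, 23 of 45 cells lay above the highest 2-h cell, and no 2-h cell reached the 36-h median, while 4 cells had no reads. The mean was 8.37 ± 3.25 in 36-h cells and 4.77 ± 3.02 in 2-h cells, a difference of 3.60 and a 10.7-fold ratio of mean normalized counts. The 16-h mean of 6.01 ± 3.11 was 1.24 above that of 2-h cells, and this difference was 0.95 with a pseudocount of 10.

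*HSP31*, of the DJ-1 family, was detected in more cells at each later age. Reads were found in 28 of 37 2-h cells, 42 of 43 16-h cells and all 45 36-h cells, where the lowest, median and highest cells stood at 3.38, 8.48 and 11.32, against 0, 4.44 and 8.03 at 2 h. Of the 45 36-h cells, 27 lay above every 2-h cell and 27 above every 16-h cell, and the probability that a randomly drawn 36-h cell was above a 2-h cell was 0.936, the highest of the 9 genes. The means were 4.00 ± 2.72, 6.29 ± 1.72 and 8.42 ± 1.66 at 2, 16 and 36 h, steps of 2.29 and 2.13. Its paralogs *HSP32*, *HSP33* and *SNO4* had no reads in any of the 37 2-h cells, which allows a share of up to 8.11% each, and mean levels of 0.66, 0.80 and 0.14 at 36 h, so none of these 3 passed the threshold. No 50-base stretch of *HSP31* recurs elsewhere in the genome. The paralogs were not examined for shared stretches, so how far counting could miss their reads is not known.

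The Hsp90 genes split by type. Heat-inducible *HSP82* had a lowest, median and highest level of 0, 4.46 and 9.48 at 2 h, 0, 7.26 and 9.73 at 16 h, and 0, 8.63 and 10.79 at 36 h, with reads in 28, 40 and 44 cells. The groups overlapped at both ends, and 9 of 45 36-h cells lay above the highest 2-h cell. The mean was 8.10 ± 1.98 in 36-h cells and 4.19 ± 2.96 in 2-h cells, a difference of 3.90 and a 5.59-fold ratio of mean normalized counts. Most of this lay between 16 h and 2 h (2.52, rank 29 of 3899), and the remaining 1.38 between 36 h and 16 h was 0.94 after scaling each cell to the same sum and 0.90 after thinning each cell to 40000 reads.

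Constitutive *HSC82* had reads in every 2-h and 16-h cell and in 44 of 45 36-h cells. Its lowest, median and highest levels were 8.42, 9.67 and 10.78 in 2-h cells, 8.28, 9.60 and 11.05 in 16-h cells, and 0, 9.54 and 10.86 in 36-h cells. The groups overlapped almost entirely, and 36-h cells drawn at random were above 2-h cells with probability 0.447. The mean was 9.25 ± 1.62 in 36-h cells and 9.62 ± 0.65 in 2-h cells, a difference of -0.36 that became -0.15 without the cell that had no *HSC82* reads (9.47 ± 0.80, n = 44). It was -0.75 after scaling each cell to the same sum and -0.69 after thinning, and the difference of -0.40 between 36 h and 16 h was -0.89 and -0.82. The 16-h mean of 9.65 ± 0.54 differed from the 2-h mean by 0.04. The squared coefficient of variation of normalized counts, which in such data usually falls with the mean level, was 0.188, 0.165 and 0.258 at 2, 16 and 36 h for *HSC82* and 3.59, 0.894 and 0.832 for *HSP82*. Without that cell the 36-h value of *HSC82* was 0.230.

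**Figure D2:**
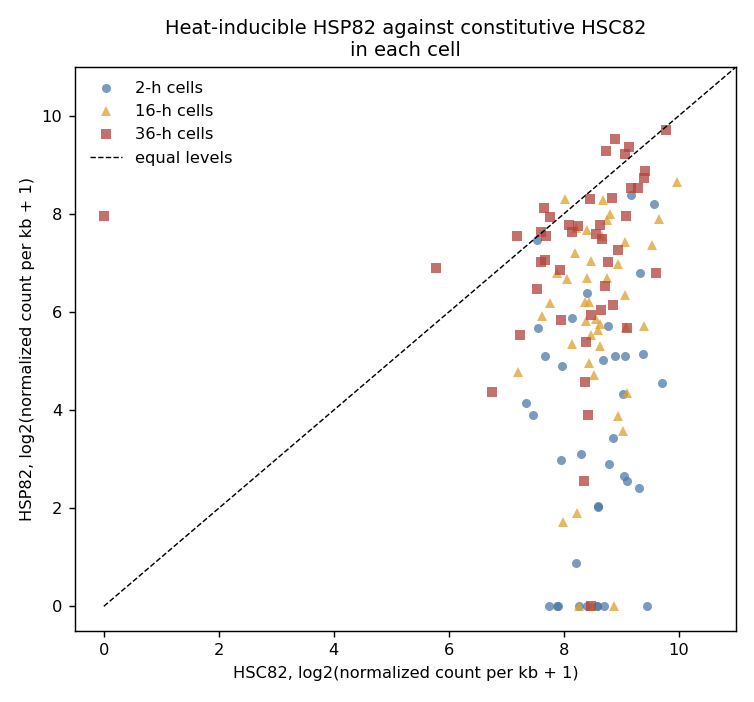
*HSP82* on the y axis against *HSC82* on the x axis, both as log2(normalized count per kb of coding length + 1), with 1 symbol per cell for the 2-h, 16-h and 36-h age groups and a dashed line of equal levels. Points of older cells lie higher at the same *HSC82* level, and 0, 1 and 10 cells lie above the line at 2, 16 and 36 h, among them the 36-h cell without *HSC82* reads at the left edge.

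Because both genes are measured in the same cell, their contrast does not depend on the size factor apart from the pseudocount. Per kb of coding length, *HSP82* minus *HSC82* averaged -5.11 ± 2.56 at 2 h, -2.85 ± 2.17 at 16 h and -1.16 ± 2.28 at 36 h (SD among 37, 43 and 45 cells), and the 36-h value was -1.37 ± 1.83 without the cell that had no *HSC82* reads. *HSP82* exceeded *HSC82* in 0 of 37 2-h cells, which allows a share of up to 8.11%, in 1 of 43 16-h cells and in 10 of 45 36-h cells, or 9 of 44 without that cell. The share of *HSP82* in the summed Hsp90 normalized counts per kb had a lowest, median and highest value of 0%, 2.62% and 48.8% at 2 h, 0%, 17.4% and 54.8% at 16 h, and 0%, 37.3% and 100% at 36 h, where the median and highest were 36.4% and 68.4% without that cell. The sum of both genes had medians of 388, 449 and 489 normalized counts per kb and overlapped widely, from 178 to 1047 at 2 h and from 126 to 1710 at 36 h. The coding sequences share 92.4% of aligned bases and their proteins 97.7% of aligned residues, yet 133 of 2081 windows of 50 bases in *HSP82* (6.39%) recur exactly in *HSC82*. How the authors' counting treated reads from those windows is not given in the sources used here, so the level of *HSP82* in cells with few of its reads is uncertain.

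Among the co-chaperones, *STI1* and *AHA1* were higher at 36 h and *CPR6* was close to the threshold. *STI1*, which bridges Hsp70 and Hsp90, had reads in 29, 39 and 44 cells at 2, 16 and 36 h and medians of 5.82, 6.09 and 7.51, with highest cells at 8.18, 8.75 and 9.59. Its mean was 6.95 ± 1.92 in 36-h cells and 4.55 ± 2.82 in 2-h cells, a difference of 2.40, and 11 of 45 36-h cells lay above every 2-h cell. *AHA1*, the ATPase activator, had reads in 20, 27 and 37 cells and medians of 2.04, 2.75 and 5.99, and nearly all of its 36-h minus 2-h difference of 2.24 lay between 36 h and 16 h (2.08). *CPR6* had reads in 22 of 37, 31 of 43 and 29 of 45 cells, with medians of 2.92, 4.13 and 5.14. Its ranges overlapped nearly throughout, 2 of 45 36-h cells exceeding the highest 2-h cell, and its difference of 1.17 (4.03 ± 3.30 in 36-h cells and 2.86 ± 2.89 in 2-h cells) fell under the threshold, at 0.97, after scaling each cell to the same sum and, at 0.79, with a pseudocount of 10.

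**Figure D3:**
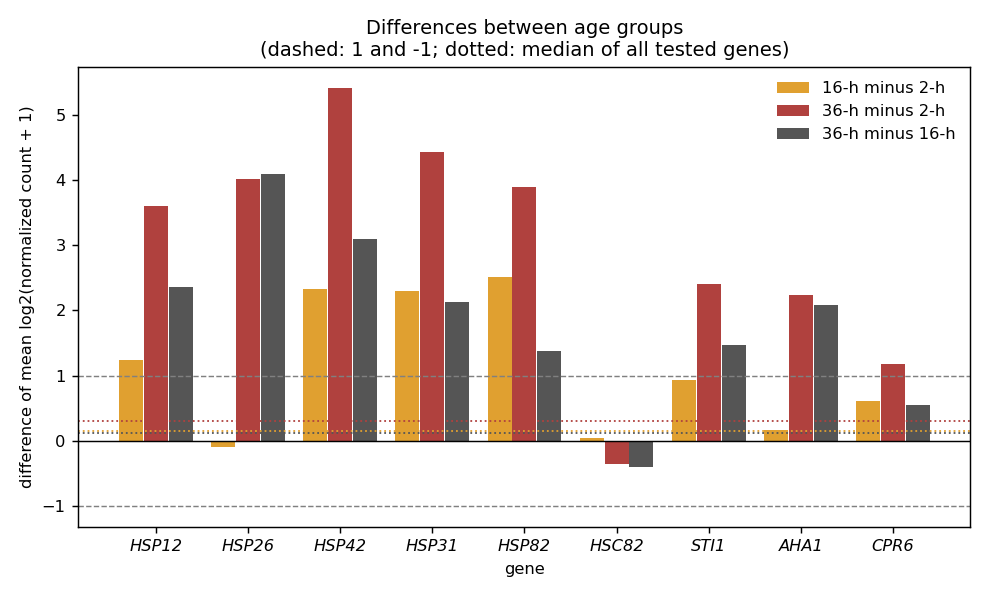
Differences of mean log2(normalized count + 1) on the y axis for the 9 genes on the x axis, with bars for 16-h minus 2-h, 36-h minus 2-h and 36-h minus 16-h, dashed lines at 1 and -1, and dotted lines at the median of all tested genes. The red bars for 36-h minus 2-h exceed 1 for 8 genes, with *HSP42* highest at 5.42, and that of *HSC82* lies at -0.36.

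Per kb of coding length, the order of the members changed with age. At 2 h, mean log2 levels per kb ran from 8.54 for *HSC82* over 5.99 for *HSP12*, 4.35 for *HSP31*, 3.93 for *STI1*, 3.42 for *HSP82*, 2.78 for *CPR6* and 2.71 for *AHA1* to 0.82 for *HSP26* and 0.27 for *HSP42*. At 36 h, *HSP12* (9.83) and *HSP31* (8.91) stood above *HSC82* (8.20), followed by *HSP82* (7.04), *STI1* (6.16), *HSP42* (5.57), *HSP26* (5.14), *AHA1* (4.93) and *CPR6* (3.93). Without division by coding length, which is 330 bases for *HSP12* and 2118 for *HSC82*, *HSC82* kept the highest 36-h mean. It was at 9.25, with *HSP31* at 8.42 and *HSP12* at 8.37. At 16 h, *HSC82* led at 8.57, with *HSP12* at 7.33, *HSP31* at 6.76 and *HSP82* at 5.72, and *HSP26* was last at 0.73. No neighbours in any of these orders differed by more than the SD of their difference within cells; for the first pair at 36 h, *HSP12* minus *HSP31*, it was 0.92 ± 3.04. Without the cell that had no *HSC82* reads, the first 4 at 36 h kept their order, at 10.05 for *HSP12*, 8.89 for *HSP31*, 8.39 for *HSC82* and 7.02 for *HSP82*.

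As deposited, fewer members passed the threshold between slow- and fast-dividing cells of an age. At 16 h, *AHA1* and *HSP82* were higher in 16-h/S cells than in 16-h/F cells by more than 1 and 0 members were lower, beside 4.69% of all genes higher and 16% lower. *HSP82* averaged 7.32 ± 2.23 in 16-h/S and 6.32 ± 2.53 in 16-h/F (n = 17 and 26 cells), with medians of 7.74 and 6.88. This difference of 1.00 sat on the threshold, and it was 0.93 after scaling to the same sum. *AHA1* averaged 3.60 ± 2.97 in 16-h/S and 2.45 ± 2.56 in 16-h/F, a difference of 1.15 that was 0.69 with a pseudocount of 10. The other members lay between -0.86 for *CPR6* and 0.45 for *HSP12*, and the median was -0.22 over the members and -0.29 over all genes. Members were also lower under other settings: *HSP42* by a difference of -2.82 and *CPR6* by -1.58 with medians, and *CPR6* by -1.02 after thinning. Over all genes, 183 were higher and 624 lower as deposited, and 683 and 577 with ratios of mean normalized counts.

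At 36 h, 0 members were higher and 2 were lower in 36-h/S cells than in 36-h/F cells by more than 1, beside 7.93% and 22% of all genes. These were *CPR6*, with reads in 8 of 18 36-h/S cells and 21 of 27 36-h/F cells and a difference of -1.93, and *HSP26*, also with reads in 8 of 18 36-h/S and 21 of 27 36-h/F cells and a difference of -1.59. The share of members that were lower was close to that over all genes. For *HSP26*, the shares of cells with reads were 44.4% (interval 21.5 to 69.2) in 36-h/S and 77.8% (57.7 to 91.4) in 36-h/F. After thinning, 8 of 18 and 18 of 27 cells had its reads. The highest *HSP26* cells stood at 11.74 in 36-h/S and 12.23 in 36-h/F, and with mean normalized counts (470 in 36-h/S and 406 in 36-h/F) the direction of *HSP26* turned. *HSP31* had medians of 9.19 in 36-h/S and 8.25 in 36-h/F and a difference of 0.53 that stayed under the threshold. *HSP82* averaged 7.54 ± 2.58 in 36-h/S and 8.47 ± 1.39 in 36-h/F, and *HSC82* 8.81 ± 2.31 and 9.55 ± 0.83, where the *HSC82* difference of -0.74 was -0.23 without the cell lacking its reads. The count of members past the threshold was 4 after scaling to the same sum or thinning and 0 with a pseudocount of 10 or mean normalized counts, and with medians 1 member was higher (*HSP42*, by 1.12) and 2 were lower. Over all genes, 309 were higher and 857 lower as deposited, against 1015 and 486 with ratios of mean normalized counts and 98 and 140 with a pseudocount of 10. The fewer reads and genes detected in 36-h/S cells, given above, move with these differences, and their part was not tested.

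**Figure D4:**
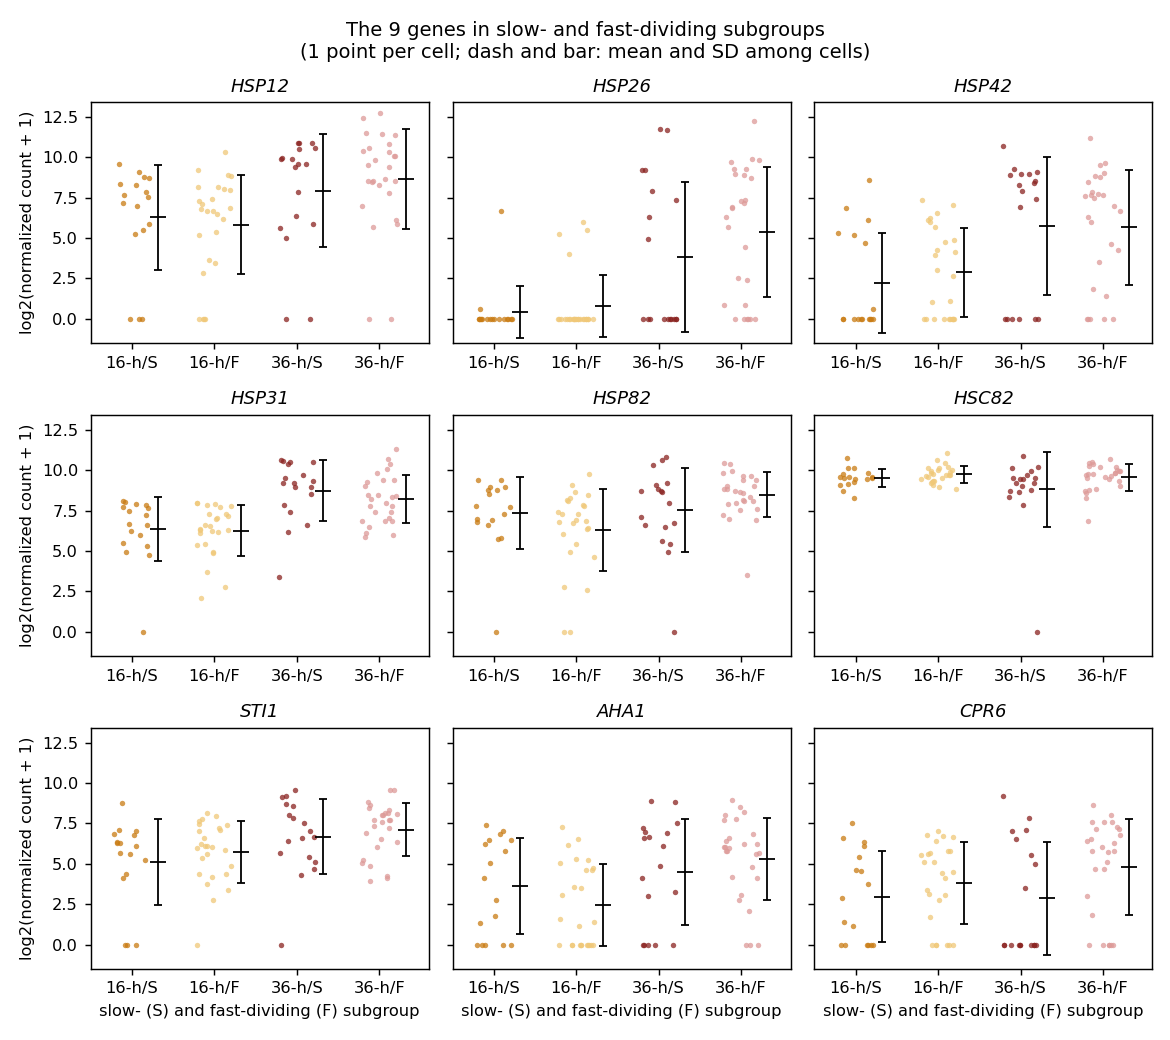
Levels of the 9 genes as log2(normalized count + 1) on the y axis in 16-h/S, 16-h/F, 36-h/S and 36-h/F cells on the x axis; each point is 1 cell and the dash with its bar is the mean and SD among cells. Ranges of S and F cells overlap for every gene at both ages, and *HSP26* and *CPR6* at 36 h have 10 of 18 S cells at 0.

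Within a cell, the Hsp90 contrast also differed between subgroups at 16 h. *HSP82* minus *HSC82* per kb averaged -2.13 ± 1.97 in 16-h/S and -3.32 ± 2.21 in 16-h/F, with median *HSP82* shares of 23.2% and 12.7%. At 36 h it averaged -1.27 ± 3.25 in 36-h/S (-1.81 ± 2.36 without the cell that had no *HSC82* reads, n = 17) and -1.09 ± 1.37 in 36-h/F, with median shares of 36.7% and 37.3%. The differences between subgroups were smaller than the SD among cells at both ages.

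The stress-inducible genes were found together mainly in old cells, where each of them was also detected in more cells. The rarest gene bounds such counts: *HSP42* had reads in 2 of 37 2-h cells, and *HSP26* in 6 of 43 16-h and 29 of 45 36-h cells. Whether the genes met more often than their single shares give was not tested. Reads on all 4 of *HSP12*, *HSP26*, *HSP42* and *HSP31* were present in 0 of 37 2-h cells, which allows a share of up to 8.11%, in 3 of 43 16-h cells and in 24 of 45 36-h cells; after thinning each cell to 40000 reads the counts were 0, 2 and 22. The number of the 9 genes with reads had a lowest, median and highest value of 2, 5 and 8 at 2 h, 3, 7 and 9 at 16 h, and 4, 8 and 9 at 36 h. All 9 were detected in 0, 3 and 15 cells, and at 36 h these were 2 of 18 36-h/S cells and 13 of 27 36-h/F cells (2 and 11 after thinning).

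Correlations among the members across the cells of an age group were highest at 36 h. Over the 36 pairs of members, the median Pearson correlation across 2-h, 16-h and 36-h cells was 0.03, 0.13 and 0.22, and 2, 2 and 11 pairs exceeded 0.4. Detection also differed by age: *HSP26* and *HSP42* had reads in only 5 and 2 of 37 2-h cells. Its part in these correlations was not tested. In the 36-h group, the level of *HSP12* also ran with the number in the cell name. The lowest of cells C23 to C49 was at 8.26, and the 4 cells without reads were C3, C9, C14 and C15. *HSP42* had no reads in any measured cell from C1 to C9, nor in C14, C20, C32 and C37. Most cells without *HSP26* reads were numbered C22 or lower, whereas those without *CPR6* reads were spread over the numbers. Cells C18 to C22 were all 36-h/S and cells C23 to C30 all 36-h/F. What this numbering stands for is not given in the sources used here. The part of the numbering in detection, the spread, the subgroup differences and the correlations was not tested. Cells of a group share a library procedure and each cell's genes share its size factor and depth, and cells without reads enter at 0, so the correlations are descriptions. At 36 h the highest were *HSP31* with *STI1* (Pearson 0.65, Spearman 0.53, n = 45 cells; 0.53 without the 2 cells farthest from the median of *HSP31*), *HSP12* with *HSP42* (0.64 and 0.62; 0.59 without 2 cells) and *HSP12* with *HSP31* (0.58 and 0.67; 0.46 without 2 cells). Given the number of genes detected, these 3 were 0.63, 0.64 and 0.58. *HSP82* with *HSC82* had a Pearson correlation of 0.07 and a Spearman correlation of 0.40 at 36 h, or 0.27 and 0.44 without the cell that had no *HSC82* reads. Without it the median over the 36 pairs at 36 h was 0.20 and 11 pairs exceeded 0.4. At 16 h, *HSP31* with *HSP82* reached 0.57 but 0.26 without 2 cells, and *HSP12* with *HSP82* reached 0.46, or 0.48 without 2 cells.

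**Figure D5:**
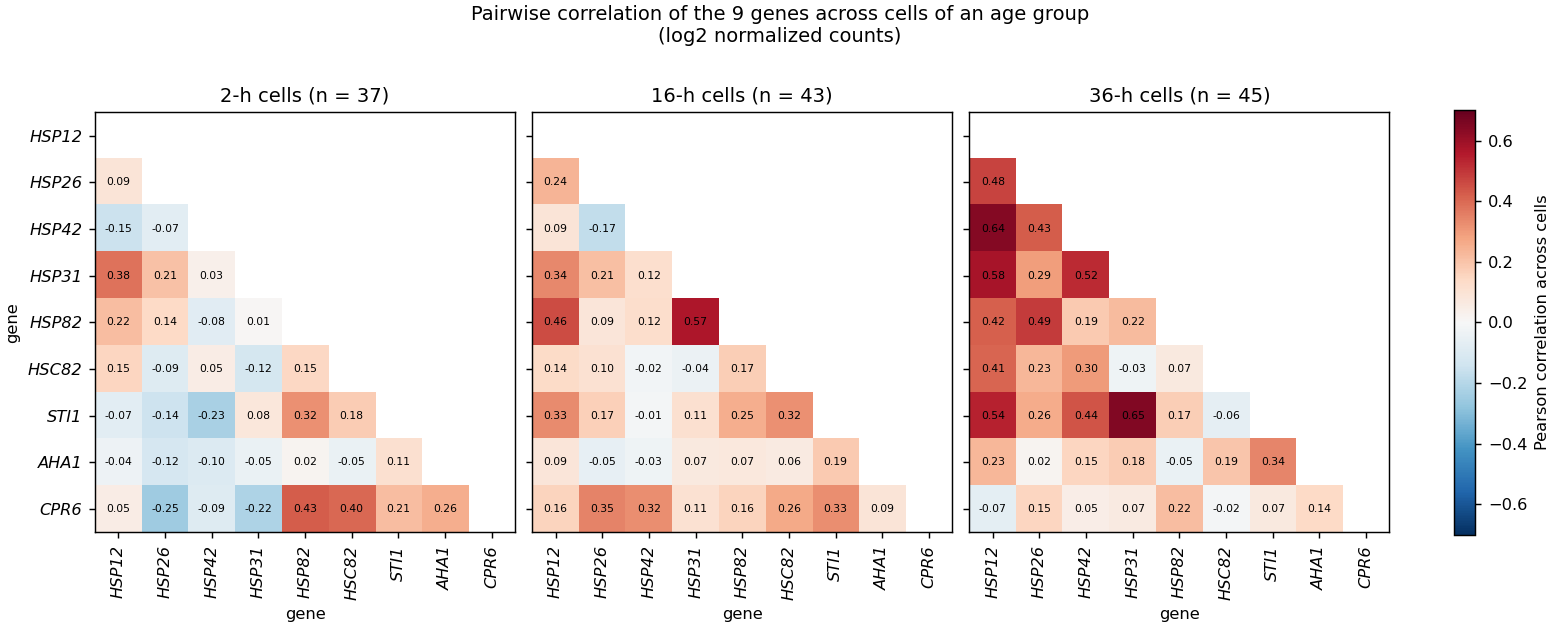
Pairwise Pearson correlations of log2 normalized counts of the 9 genes (both axes) across 37 2-h, 43 16-h and 45 36-h cells, with the value written in each square and colour from blue (negative) to red (positive). The upper left squares, among *HSP12*, *HSP26*, *HSP42* and *HSP31*, are all positive at 36 h, between 0.29 and 0.64.

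Beyond the 9 genes, the pattern most like *HSP12* across the 45 36-h cells, taken over the 1569 genes detected in 50% of them or more, was that of *PNC1*, a nicotinamidase of NAD+ salvage (Pearson 0.79, Spearman 0.86), then *PGM2*, a phosphoglucomutase (0.77 and 0.81), and *HOR7* (0.76 and 0.80). These held without the 2 farthest cells, at 0.81, 0.70 and 0.71. For *HSP82* they were *RDL1* (0.66, and 0.35 without 2 cells), *TFS1* (0.59 and 0.57) and *TPS1*, trehalose-6-phosphate synthase (0.56 and 0.45). The cell wall protein genes *CWP2* (0.75) and *CCW12* (0.73) and the dihydroxyacetone kinase gene *DAK1* (0.66) came first for *HSC82*, but without 2 cells, of which 1 had no *HSC82* reads, they were 0.29, 0.01 and 0.09.

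Other genes of the same routes were counted from fixed lists for 36 h against 2 h, where 25.5% of all genes were higher and 14.9% lower. List genes were counted whatever their mean level, whereas these shares cover genes with a mean level of at least 1. Of 9 further Hsp90 co-chaperones, 2 were higher (*CDC37*, the kinase-loading co-chaperone, by 1.85, and *PIH1* by 1.09) and 2 lower (*PPT1*, the Hsp90-associated phosphatase, by a difference of -2.65, and *CNS1*, by -1.05), with a median of 0.37 beside 0.31 for all genes. *PPT1* had reads in 24 of 37, 18 of 43 and 7 of 45 cells at 2, 16 and 36 h, opposite in direction to *STI1*. Of 13 other Hsf1 targets, 9 were higher and 0 lower, with a median of 2.13, and the rest stayed under the threshold. The largest differences of this list were those of the disaggregase gene *HSP104* (6.59 in 36-h cells and 1.45 in 2-h cells), the polyubiquitin gene *UBI4* (6.29 and 1.86) and the mitochondrial chaperone genes *HSP78* (4.30 and 0.69) and *MDJ1* (4.82 and 1.85). All 10 other Msn2/Msn4 targets were higher, with a median of 5.27, led by *TPS2*, trehalose-6-phosphate phosphatase (7.96 in 36-h cells and 0.97 in 2-h cells), and *CTT1*, cytosolic catalase (6.77 and 0.09). Among the regulators themselves, *MSN4* was higher by 1.11, at low levels (1.27 in 36-h cells and 0.16 in 2-h cells), while *HSF1* differed by 0.17 and *MSN2* by 0.80.

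The same lists were also counted between subgroups. In 36-h/S against 36-h/F, 0 of 13 other Hsf1 targets were higher and 7 lower (median -1.08), and 0 of 10 other Msn2/Msn4 targets were higher and 6 lower (median -1.38), where 7.93% of all genes were higher and 22% lower. Of the 9 further co-chaperones, 1 was higher and 0 lower (*SGT1*, a co-chaperone of kinetochore assembly, 3.73 in 36-h/S and 1.94 in 36-h/F), and of the 3 regulators 1 was higher and 0 lower (*MSN2*, 4.01 and 2.31). *HSP104* was lower by the most of the 4 Hsf1 targets named, with 4.38 in 36-h/S and 8.07 in 36-h/F, whereas *HSP42* averaged 5.74 in 36-h/S and 5.67 in 36-h/F. At 16 h the counts were 2 higher and 3 lower of 13, and 0 higher and 1 lower of 10, beside 4.69% of all genes higher and 16% lower. There, 0 of the 9 co-chaperones were higher and 1 lower (*TAH1*, 0.47 in 16-h/S and 1.82 in 16-h/F), and 1 of the 3 regulators was higher and 0 lower (*MSN2*, by 1.06). *SGT1*, *TAH1* and *MSN2* were singled out here after their values were seen. None of the 3 *HSP31* paralogs passed the threshold between subgroups at either age.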

How the data were processed

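Read pairs were aligned by the authors with HISAT2 2.1.0 (genome build R64), handled with SAMtools 1.1 and assigned to genes by featureCounts; they left out shallow cells and cells dominated by spike-ins. The deposited values are log2 normalized counts made by the authors with size factors from DESeq2. Undoing the log2 gave whole reads for all 278228 values above 0, within a tolerance of 0.05. The strand setting of the counting is not given in the sources used here. Of the identifiers, 5693 matched R64 and 304 did not; no member overlaps another gene.

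Means, SDs, exact Clopper-Pearson intervals (scipy 1.17.1), differences of mean log2 and correlations across cells were computed with numpy 2.4.6 and pandas 2.3.3 under Python 3.11.15, and sequences were read with Biopython 1.88. The difference script was tested on simulated data. The members, the lists and the alternatives were chosen with earlier results of these data known. Genes named are the 9 members, at most 4 per list in each direction by the size of the 36-h minus 2-h difference, and the 3 genes most correlated with *HSP12*, *HSP82* and *HSC82* at 36 h. S and F subgroups come from the study's sample table. Alternatives were scaling to equal sums, thinning to 40000 reads, ratios of mean normalized counts, medians, a pseudocount of 10, leaving out cells under 1500 genes, and other filters.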

Additional observations from a re-analysis of the deposited data

How the results depend on the processing

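With no test, the limits are the sparse reads (62.9% of values were 0) and the single sample per group. The count of members past 1 was 7 to 8 of 9 for 36 h against 2 h, 3 to 5 for 16 h against 2 h and 6 to 8 for 36 h against 16 h over the alternatives. For 16-h/S against 16-h/F, where 2 members passed, it was 1 after scaling to equal sums, 1 with mean normalized counts, 1 without cells under 1500 genes and 0 with a pseudocount of 10; with medians it was 3, of which 2 were lower. For 36-h/S against 36-h/F it was 4 after scaling to equal sums, 4 after thinning, 0 with mean normalized counts and 0 with a pseudocount of 10, against 2 as deposited, and *HSP26* reversed to 0.21 with mean normalized counts.

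The share of all genes past 1 in either direction moved most with a pseudocount of 10, to 15.6% for 36 h against 2 h, 2.98% for 16 h against 2 h, 7.62% for 36 h against 16 h, 1.90% for 16-h/S against 16-h/F and 6.10% for 36-h/S against 36-h/F. With mean normalized counts it was 38.4% for 36 h against 16 h and 32.3% for 16-h/S against 16-h/F. The cause was not tested. Of 270 single-gene values under these settings, 253 kept their sign, 15 had the other sign (14 of them within 1 of 0 as deposited, the other being *HSP26* above) and 2 were 0, and medians moved *HSP26* to -6.87 and *CPR6* to -5.82 for 36-h/S against 36-h/F. Leaving out the cell without *HSC82* reads was chosen after seeing the data. No paired analysis was possible because each library is a separate cell and the labels do not link cells of different groups. The results come from no test.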
